A study of Mus musculus with 10 samples.

Results

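The genes of the proteasome were followed in regulatory T (Treg) cells that had lost Fntb. They were all genes whose symbol begins with Psma, Psmb, Psmc, Psmd, Psme or Psmg and a digit and that a probe set names alone, with the brightest probe set standing for each gene. This gave 48 of the 22180 genes tested, of which 46 encode a subunit, an activator or an assembly chaperone. The other 2, Psmc3ip and Psme3ip1, encode proteins that bind a subunit or an activator. Psma4, an alpha ring subunit, was left out because both probe sets that name it also name another gene, and Psme2b has no probe set here.

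The Fntb KO samples came from chimeras of the genotype Foxp3CreFntbfl/fl, in which Cre under the control of Foxp3 removes Fntb in Treg cells. Fntb encodes the beta subunit of protein farnesyltransferase. WT samples came from chimeras labelled WT, and whether those carry the Cre is not given in the labels. In both genotypes the sorted population was CD4+ YFP+, taken from spleen and pLN, and there were 5 arrays of each genotype. The make-up of the chimeras and the age of the animals are not given in the labels. The labels do not state that each sample of a genotype is from its own animal. The p-values therefore measure the spread among these samples, which may be technical.

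The proteasome is the protease that degrades ubiquitin-tagged proteins in the cytosol and nucleus. Its 20S core stacks alpha rings, which gate the entrance, on beta rings, which hold the proteolytic sites. The 19S particle binds ubiquitin chains, removes them and feeds unfolded protein into the core with a ring of ATPases. Cells of the immune system carry alternative catalytic beta subunits, which make up the immunoproteasome and which interferon gamma raises further. Dedicated chaperones build the alpha ring, the beta ring and the ATPase ring and are not part of the finished particle.

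Fntb, the deleted gene, had log2 values of 5.49, 5.31, 5.41, 5.55 and 5.62 in Fntb KO arrays 1 to 5, against 6.35, 5.99, 5.98, 6.09 and 6.20 in WT arrays 1 to 5. Every Fntb KO array lay below every WT array. The difference was -0.65 (SE 0.0963), with an adjusted p of 0.00442 in limma over all genes. Permuting the 10 arrays exactly gave a two-sided p of 0.00794, which no arrangement of 5 and 5 can undercut. Where the probe set lies relative to the deletion was not examined. The Treg label held on its markers: Foxp3 averaged 10.53 ± 0.05 in Fntb KO, against 10.67 ± 0.03 in WT (mean ± SD of 5 arrays, here and below). The summed level of 5 Treg markers ran from 12.41 to 12.54 in Fntb KO and from 12.60 to 12.72 in WT (log2), without overlap. Of the markers of other blood cells, only Nkg7 of cytotoxic lymphocytes was called, at -0.79 (adjusted p 0.0126). The other 4 measured CD8 T or NK cell markers were higher in Fntb KO without a call, Cd8b1 by 0.27 (adjusted p 0.827). The summed CD8 T or NK cell markers ran from 7.64 to 8.45 in Fntb KO and from 8.18 to 8.68 in WT, with Cd8a, Klrb1c and Ncr1 below 4.19, a level that 95% of olfactory receptor genes do not reach. The neutrophil markers ran from 6.04 to 7.60 in Fntb KO and from 6.07 to 6.45 in WT, with Ly6g, Mpo and Elane below that level. The neutrophil markers S100a8 and S100a9 differed by 1.05 and 0.66 (adjusted p 0.321 and 0.546). Whole-array medians ran from 4.09 to 4.25, and Fntb KO 1, Fntb KO 2 and WT 2 had the lowest (4.12, 4.09 and 4.10). These are called the 3 low-median arrays below. They are consecutive in accession order, and the labels name no batch for them.

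None of the 48 proteasome genes passed the threshold of a limma adjusted p under 0.05, against 1.11% of all genes tested (0.807% lower and 0.302% higher). Their adjusted p ran from 0.241 to 1.00. At an unadjusted p under 0.05 there were 3 lower genes, Psma3, Psmd1 and Psmd10, and 1 higher gene, Psmc3ip, where 5.01% of all genes were lower and 4.25% higher. The differences were small, between -0.51 and 0.33, and only Psmd10 reached 0.5 in size. A negative difference was found for 38 genes and a positive one for 10, with a median of -0.08. Over all genes 47.5% were negative with a median of 0.01, and over genes at or above the median level 53.0% were negative with a median of -0.01. In bulk samples, fewer cells of one kind and less RNA per cell cannot be told apart.

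**Figure D1:**
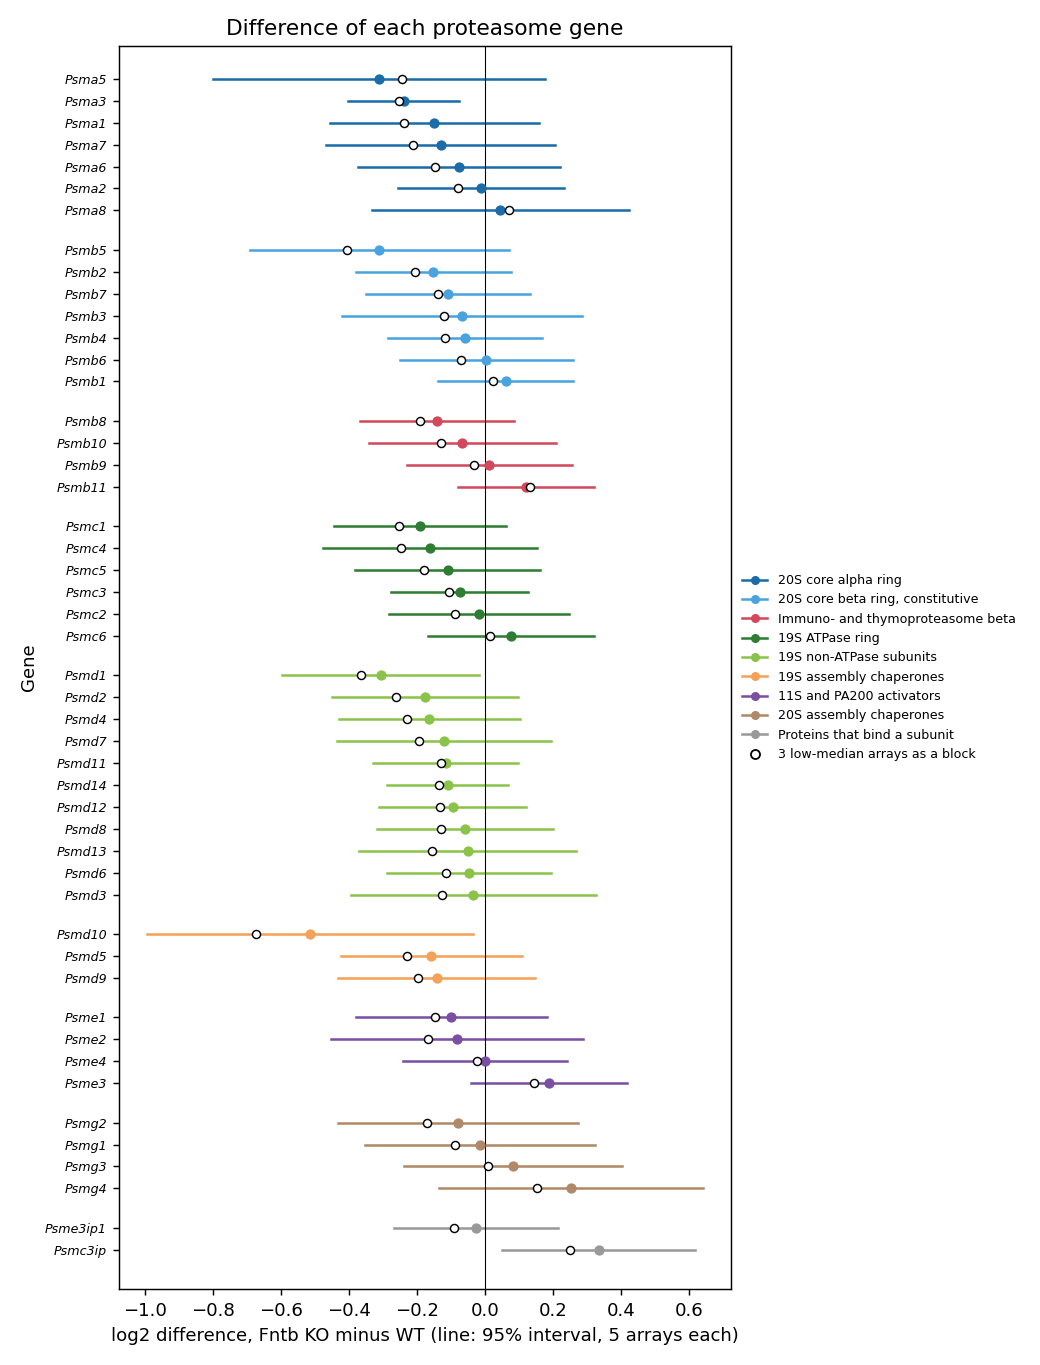
Difference of each of the 48 proteasome genes in log2 units, Fntb KO minus WT (x axis), grouped by the part of the particle. Filled points are differences over 5 arrays of each genotype and lines their 95% intervals, and open points are the differences in the block fit. Most points lie left of 0 and most lines cross 0, and Psmd10 lies farthest to the left.

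The excess of negative differences was smallest when Fntb KO 5 or WT 2 was left out. The median log2 value of the 48 genes was 8.24, 8.32, 8.10, 8.02 and 7.98 in Fntb KO 1 to 5, against 8.09, 8.53, 8.10, 8.22 and 8.16 in WT 1 to 5. The genotypes overlapped. WT 2 was the brightest array for 24 of the 48 genes, and Fntb KO 5 was the dimmest for 31. Of the 11090 genes at or above the median level, WT 2 was the brightest for 2221 and Fntb KO 5 the dimmest for 2401. Each was the largest such count of any array. Relative to each gene's own mean over all arrays, the median of the 48 genes was -0.29 in Fntb KO 5 and 0.23 in WT 2. Without Fntb KO 5 the median difference was -0.01, with 26 genes negative, and without WT 2 it was -0.03, with 29 negative.

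The 3 low-median arrays were the 3 highest for the proteasome genes. On the same scale they stood at 0.09 in Fntb KO 1, 0.19 in Fntb KO 2 and 0.23 in WT 2, while the other 7 arrays ran from -0.29 to 0.01. The 71 measured genes of mitochondrial ribosomal proteins, another set that every cell uses, had medians of 0.23, 0.26 and 0.25 in those 3 arrays and of -0.25 in Fntb KO 5. The same order held, in smaller size, over the 11090 genes at or above the median level. There those 3 arrays were the highest, at 0.03, 0.07 and 0.09, and Fntb KO 5 was the lowest, at -0.06. The pattern was thus not particular to the proteasome genes. The genotypes were therefore also compared with those 3 arrays fitted as a block, called the block fit here. In it 40 of the 48 genes were negative and the median difference was -0.13. Over all genes at or above the median level, 57.0% were negative in that fit, with a median of -0.03. Without the 3 arrays 41 were negative, again with a median of -0.13. In Fntb KO 5 the monocyte or macrophage marker sum of 7.40 was the lowest of the 10 arrays, as was the sum of 7.64 for markers of CD8 T or NK cells. Its T cell marker sum of 13.01 was the lowest too, against 13.16 to 13.31 in the other Fntb KO arrays and 13.15 to 13.40 in WT arrays. The part of these values in the low proteasome readings was not tested.

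**Figure D2:**
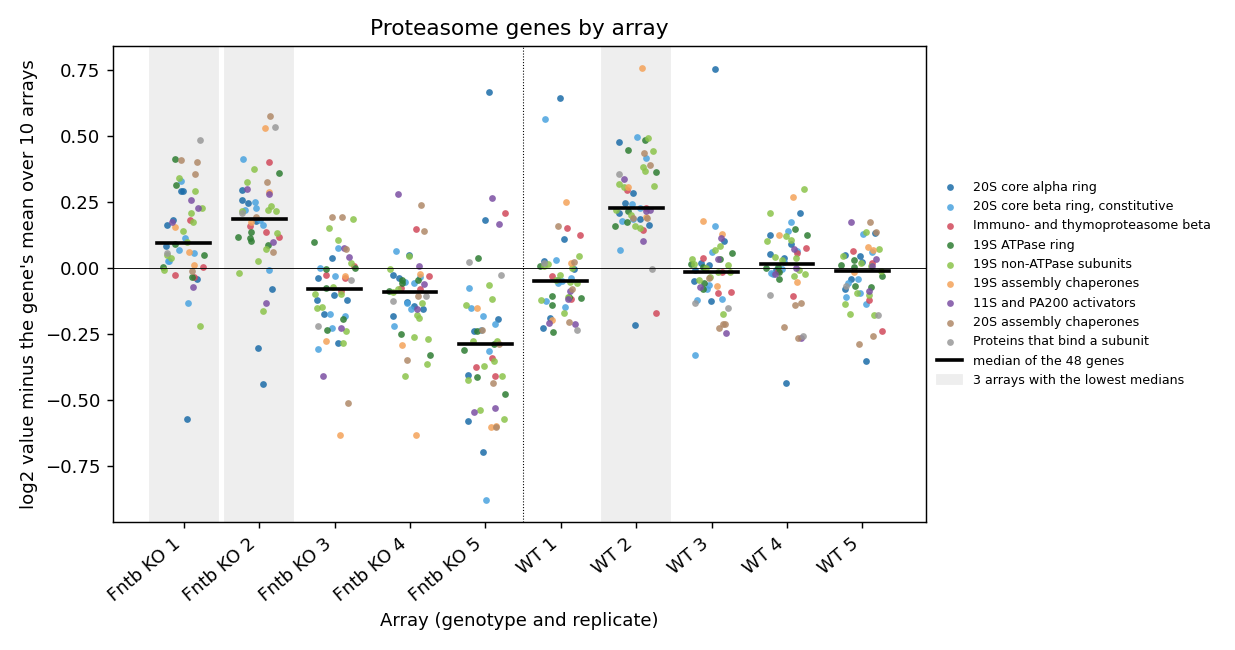
Log2 value of each of the 48 genes minus the gene's mean over the 10 arrays (y axis) in each array (x axis, Fntb KO left of WT), coloured by part of the particle. Black bars are medians over the genes and grey bands mark the 3 low-median arrays. The medians are highest in WT 2 (0.23) and Fntb KO 2 (0.19) and lowest in Fntb KO 5 (-0.29).

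Psmd10 was the 1 proteasome gene whose call depended on the block. It encodes gankyrin, a chaperone that holds the ATPase Psmc4 while the 19S base is assembled and that also binds the retinoblastoma protein and Mdm2. Its log2 values were 7.32, 7.79, 6.63, 6.63 and 6.66 in Fntb KO 1 to 5, against 7.51, 8.02, 7.20, 7.53 and 7.35 in WT 1 to 5. Fntb KO 1 and 2 overlapped the WT arrays, while Fntb KO 3, 4 and 5 lay below all of them. Over all arrays the difference was -0.51 (SE 0.222), a fold of 1.43 down, with an adjusted p of 0.485.

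In the block fit Psmd10 fell by 0.67 (SE 0.109), 1.60-fold, with a limma adjusted p of 0.00714. It was the only one of the 48 genes called there, where 1.66% of all genes were called (1.24% lower and 0.419% higher). Within the 3 low-median arrays the 2 Fntb KO arrays differed from the 1 WT array by -0.47. In the other 7 arrays Psmd10 was called as well, at -0.76 and an adjusted p of 0.0146, with 3 Fntb KO and 4 WT arrays, and no other proteasome gene was, against 0.676% of all genes called (0.491% lower and 0.185% higher). The block fit kept the call when each of the 10 arrays was left out in turn, with adjusted p between 0.00205 and 0.0268. The 3 low-median arrays were set apart by their values in these same data, and that last set of fits was also chosen after seeing the data. All these fits share arrays, so they are not separate evidence. Among the other 7 arrays every Fntb KO array comes after every WT array in accession order, so genotype and order cannot be told apart there. The block fit uses those 7 arrays too, so its call carries the same limit. What it adds is the comparison of 2 Fntb KO arrays with 1 WT array. Atg4a, the neighbouring gene on the X chromosome, differed by 0.11 over all arrays and by 0.04 with the block, with adjusted p of 0.921 and 0.946.

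The other 19S chaperones had the same sign without a call. Psmd5, which binds the pair of Psmc2 and Psmc1 during assembly, averaged 6.96 ± 0.23 in Fntb KO and 7.12 ± 0.19 in WT, a difference of -0.16. Psmd9, which binds Psmc3, averaged 5.50 ± 0.32 in Fntb KO and 5.64 ± 0.10 in WT, a difference of -0.14. Their adjusted p were 0.787 and 0.844 over all arrays and 0.289 and 0.538 with the block.

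**Figure D3:**
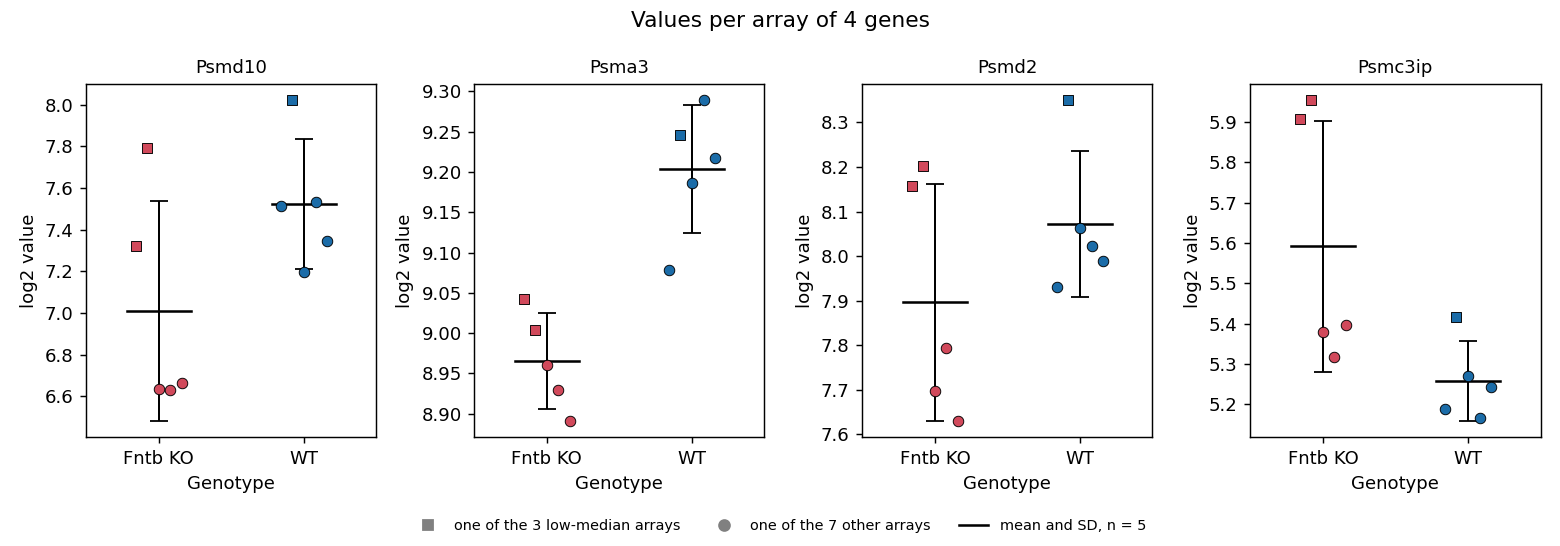
Log2 values (y axis) of Psmd10, Psma3, Psmd2 and Psmc3ip in each Fntb KO (left) and WT (right) array. Squares are the 3 low-median arrays, circles the other 7, and bars the mean and SD of 5 arrays. For Psmd10 and Psmd2 the genotypes separate among circles and overlap when squares are included, and for Psma3 they do not overlap at all.

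In the alpha ring, Psma3 was the gene with the lowest unadjusted p of all 48 (0.00758). Psma3 had 9.04, 9.0, 8.96, 8.93 and 8.89 in Fntb KO 1 to 5, against 9.08, 9.25, 9.19, 9.29 and 9.22 in WT 1 to 5 (log2). It was the only proteasome gene whose genotypes did not overlap, where 1.65% of all genes had Fntb KO wholly below WT and 1.01% wholly above. The difference of -0.24 (SE 0.0759, 95% interval -0.40 to -0.07) came with an adjusted p of 0.241, and of 0.132 with the block, so it did not pass. Psma3 lies on chromosome 12, as does Fntb. The 2 other proteasome genes of that chromosome, Psma6 and Psmc1, differed by -0.08 and -0.19 and their genotypes overlapped. Frmd6 and Arid4a were picked as genes near Psma3, without a set distance. Frmd6 differed by -0.42 and its genotypes did not overlap. Its adjusted p was 0.106, and 0.0372 with the block, where 1.66% of all genes were called. Arid4a, also near Psma3, differed by -0.11 with overlap (adjusted p 0.822). Whether Psma3 and Frmd6 share a cause was not tested.

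Promoter windows of 250 bases before to 50 bases after the start site were available from RefSeq (GRCm38.p6) for 40 of the 48 genes. They were searched on both strands for letters that regulators of housekeeping, stress and interferon genes are known to bind. The ETS core CCGGAAG was in 14 of 40 windows (35%), against 9.12% of the 27025 windows of all genes, and the NF-Y box CCAAT was in 15 (37.5%, against 37.9%). The antioxidant response letters TGACNNNGC were in 6 (15%, against 12.5%) and the gamma-activated letters TTCNNNGAA in 3 (7.5%, against 8.47%). The interferon-stimulated response element was matched in 5 (12.5%, against 3.49%), and the NF-kB site in 0, against 1.17% of all. The proteasome windows had a median GC content of 57.3%, against 52.7% over all windows. A match describes letters and is not a site. The windows of Psmd10, called in the block fit, and of Psma3, without overlap, are shown with every match to these 6 motifs in capitals. Here all are CCAAT or its reverse complement.
Psmd10 (matches at -230, -47 and -24 from the start, chrX:140956662-140956961, minus strand): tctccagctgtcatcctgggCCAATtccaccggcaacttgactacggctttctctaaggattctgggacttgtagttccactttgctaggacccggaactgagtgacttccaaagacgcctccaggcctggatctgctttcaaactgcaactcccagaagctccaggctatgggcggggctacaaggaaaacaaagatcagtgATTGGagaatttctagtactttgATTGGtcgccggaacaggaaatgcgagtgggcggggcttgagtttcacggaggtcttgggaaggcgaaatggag
Psma3 (matches at -139, 13 and 30 from the start, chr12:70974373-70974672, plus strand): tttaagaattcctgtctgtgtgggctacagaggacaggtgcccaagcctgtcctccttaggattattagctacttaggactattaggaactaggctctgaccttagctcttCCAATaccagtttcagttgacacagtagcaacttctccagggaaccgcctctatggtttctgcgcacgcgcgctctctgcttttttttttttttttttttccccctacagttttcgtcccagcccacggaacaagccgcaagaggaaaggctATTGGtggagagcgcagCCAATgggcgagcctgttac

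The other alpha subunits differed by -0.31 (Psma5) to 0.05 (Psma8), and these 2 genes read below the olfactory receptor guide. Psma1, Psma6 and Psma7, at -0.15, -0.08 and -0.13, had adjusted p of 0.846, 0.942 and 0.889. Psma2 differed by -0.01. Psma5 belongs to every 20S core, but its probe set read 2.78, 2.91, 3.07, 3.21 and 4.02 in Fntb KO, against 3.46, 3.54, 4.10, 3.44 and 3.0 in WT. All these values lie below 4.19, the 95th percentile of the 1105 olfactory receptor genes, which T cells are not known to use. The second Psma5 probe set was lower still, at a mean of 2.52, and differed by 0.12, the other way. The array thus did not measure this subunit above that guide level. Psma8, the alpha subunit of the testis, was at 3.22 ± 0.23 in Fntb KO and 3.17 ± 0.41 in WT.

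Of the constitutive beta subunits, Psmb5 differed most. Psmb5 carries the chymotrypsin-like site, Psmb6 the caspase-like site and Psmb7 the trypsin-like site. Psmb5 had 9.40, 9.46, 9.25, 9.13 and 8.40 in Fntb KO 1 to 5, against 9.24, 9.78, 9.34, 9.42 and 9.41 in WT 1 to 5. Fntb KO 5 stood far below the other 9 arrays, which overlapped. The difference was -0.31 (95% interval -0.69 to 0.07, adjusted p 0.659), and -0.40 with the block (adjusted p 0.215). Without Fntb KO 5 it was -0.13. Psmb6 averaged 7.77 ± 0.26 in Fntb KO and 7.77 ± 0.11 in WT, and Psmb7 averaged 8.72 ± 0.18 in Fntb KO and 8.83 ± 0.18 in WT. Among the beta subunits without a site of their own, Psmb2, Psmb3 and Psmb4 differed by -0.15, -0.07 and -0.06. Psmb1 differed by 0.06. Apart from Psmb5, no adjusted p of a constitutive beta subunit was below 0.744.

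Immunoproteasome genes did not pass in either direction. Psmb9, which replaces Psmb6, had 10.83, 10.79, 10.56, 10.80 and 10.31 in Fntb KO 1 to 5, against 10.80, 10.79, 10.55, 10.55 and 10.53 in WT 1 to 5. The genotypes overlapped, with Fntb KO 1 above and Fntb KO 5 below all WT arrays. The difference of Psmb9 was 0.01, with a 95% interval from -0.23 to 0.26. Psmb8, which replaces Psmb5, had 8.99, 9.17, 8.99, 8.94 and 8.64 in Fntb KO, against 8.99, 9.31, 9.05, 9.0 and 9.08 in WT, a difference of -0.14 (-0.37 to 0.09). Psmb10, which replaces Psmb7, differed by -0.07 (-0.34 to 0.21). Their adjusted p were 0.992, 0.772 and 0.946. Psmb11, the beta subunit of the thymic cortical epithelium, read 3.09 ± 0.10 in Fntb KO and 2.97 ± 0.16 in WT, below the olfactory receptor guide.

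To ask whether the immunoproteasome moved apart from the constitutive core, each pair of interchangeable subunits was subtracted within its array. The values of different probe sets cannot be set against each other, but a shift of the difference between genotypes shows unequal change. Psmb8 minus Psmb5 was -0.41, -0.29, -0.26, -0.19 and 0.23 in Fntb KO 1 to 5, against -0.25, -0.47, -0.29, -0.42 and -0.33 in WT 1 to 5. It averaged -0.18 ± 0.25 in Fntb KO and -0.35 ± 0.09 in WT, and only Fntb KO 5 was above 0. The shift of 0.17 (95% interval -0.06 to 0.46) gave p = 0.159 in an exact two-sided permutation of the arrays, or 0.476 adjusted over the 3 pairs, and it was 0.06 without Fntb KO 5. Psmb9 minus Psmb6 shifted by 0.01 (-0.24 to 0.28) and Psmb10 minus Psmb7 by 0.04 (-0.16 to 0.25), each with an adjusted exact permutation p of 0.952. The windows of Psmb8 and Psmb5 are shown because these subunits replace each other. Their capitals mark 1 gamma-activated match in Psmb8 and 1 antioxidant response match in Psmb5, and they share none of the 6 motifs.
Psmb8 (match at -97 from the start, chr17:34197945-34198244, plus strand): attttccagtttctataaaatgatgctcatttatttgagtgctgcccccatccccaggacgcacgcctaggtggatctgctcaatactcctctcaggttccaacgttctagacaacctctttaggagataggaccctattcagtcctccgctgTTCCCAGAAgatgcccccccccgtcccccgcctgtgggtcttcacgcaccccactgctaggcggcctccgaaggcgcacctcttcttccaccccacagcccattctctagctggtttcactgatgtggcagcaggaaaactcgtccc
Psmb5 (match at -47 from the start, chr14:54617946-54618245, minus strand): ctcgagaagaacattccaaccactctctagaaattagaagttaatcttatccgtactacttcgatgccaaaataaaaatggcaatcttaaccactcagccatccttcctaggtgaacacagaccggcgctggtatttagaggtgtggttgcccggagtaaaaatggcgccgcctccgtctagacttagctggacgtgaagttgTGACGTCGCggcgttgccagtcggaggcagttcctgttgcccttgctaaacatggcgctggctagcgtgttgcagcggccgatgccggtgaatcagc

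**Figure D4:**
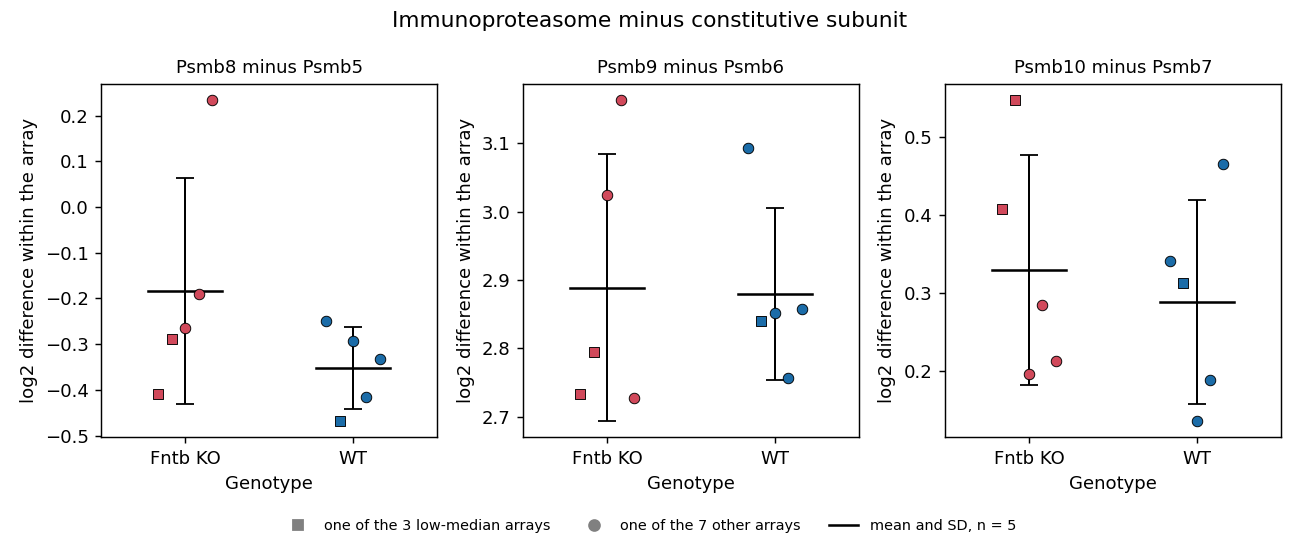
Immunoproteasome subunit minus the constitutive subunit it replaces within each array (y axis, log2) for 3 pairs, with Fntb KO left and WT right. Squares are the 3 low-median arrays, circles the other 7, and bars the mean and SD of 5 arrays. The genotypes overlap in each panel, and Fntb KO 5 (0.23) stands alone in Psmb8 minus Psmb5.

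All 11 non-ATPase subunits of the 19S particle had a negative difference, from -0.31 to -0.03 with a median of -0.11, and none was called. Fntb KO 5 was the dimmest array for 9 of the 11 genes, and WT 2 was the brightest for 9. Their median difference was -0.02 without Fntb KO 5 and -0.07 without WT 2. The scaffold subunit Psmd1 had 7.57, 8.01, 7.81, 7.43 and 7.38 in Fntb KO 1 to 5, against 7.74, 8.24, 7.80, 8.09 and 7.87 in WT 1 to 5. The lowest 3 values were all Fntb KO, and Fntb KO 2 and 3 lay within the WT range. Its difference of -0.31 (SE 0.135) had an unadjusted p of 0.0402 and an adjusted p of 0.50. Psmd2, the other large scaffold, had 8.16, 8.20, 7.70, 7.79 and 7.63 in Fntb KO, against 7.93, 8.35, 8.06, 8.02 and 7.99 in WT. Psmd2 differed by -0.18 over all arrays (adjusted p 0.764) and by -0.26 in the block fit (adjusted p 0.128). In the 7 other arrays its genotypes did not overlap. That held for 4 proteasome genes with Fntb KO lower (Psma3, Psmb6, Psmd2 and Psmd10) and for 1 with Fntb KO higher (Psmc3ip), against 5.77% of all genes lower and 4.38% higher. The window of Psmd2 shows the ETS core that 14 proteasome windows held, here at -26 as its reverse complement, and a gamma-activated match at 4.
Psmd2 (ETS core and gamma-activated match, chr16:20651402-20651701, plus strand): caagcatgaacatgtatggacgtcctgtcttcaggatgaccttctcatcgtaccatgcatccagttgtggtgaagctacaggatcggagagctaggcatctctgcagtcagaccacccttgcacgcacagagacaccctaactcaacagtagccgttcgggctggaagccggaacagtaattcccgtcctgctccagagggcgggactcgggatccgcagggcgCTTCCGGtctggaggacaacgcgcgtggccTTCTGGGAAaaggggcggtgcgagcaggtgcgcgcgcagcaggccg

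The ubiquitin receptor Psmd4 averaged 8.55 ± 0.24 in Fntb KO and 8.72 ± 0.18 in WT, and the deubiquitinase Psmd14 averaged 8.02 ± 0.06 in Fntb KO and 8.12 ± 0.12 in WT. Psmd7, which pairs with Psmd14, differed by -0.12. The lid subunits Psmd3, Psmd6, Psmd8, Psmd11, Psmd12 and Psmd13 differed by -0.03, -0.05, -0.06, -0.12, -0.09 and -0.05. In the ATPase ring, 5 of 6 genes were negative with a median of -0.09. Psmc1 averaged 8.70 ± 0.15 in Fntb KO and 8.89 ± 0.24 in WT, a difference of -0.19. Psmc4, the partner of Psmd10, averaged 8.56 ± 0.33 in Fntb KO and 8.72 ± 0.18 in WT, a difference of -0.16 with an adjusted p of 0.833. Psmc2, Psmc3, Psmc5 and Psmc6 differed by -0.02, -0.07, -0.11 and 0.08. The second probe set of Psmc2 gave -0.14.

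The activators that open the core without ubiquitin differed in sign. Psme1 and Psme2 together form the activator that interferon gamma raises. They differed by -0.10 and -0.08, with 95% intervals of -0.38 to 0.18 and -0.45 to 0.29. Psme3, which forms the nuclear activator, had 7.34, 7.21, 7.16, 7.05 and 7.28 in Fntb KO 1 to 5, against 6.90, 7.33, 6.87, 6.85 and 7.15 in WT 1 to 5. The 3 lowest values were all WT, and WT 2 and WT 5 lay within the Fntb KO range. The difference of Psme3 was 0.19 (-0.04 to 0.42, adjusted p 0.658). Psme4, a single-chain activator, averaged 7.55 ± 0.24 in Fntb KO and 7.55 ± 0.10 in WT.

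The chaperones of the alpha ring differed by -0.08 to 0.25. Psmg4 had 6.94, 7.16, 6.66, 6.82 and 5.99 in Fntb KO 1 to 5, against 6.51, 6.77, 6.37, 6.32 and 6.33 in WT 1 to 5, with Fntb KO 5 below all WT arrays and Fntb KO 1, 2 and 4 above them. Its difference was 0.25 (adjusted p 0.758), and 0.43 without Fntb KO 5. Its partner Psmg3 differed by 0.08, and Psmg1 and Psmg2, which act as a pair, differed by -0.01 and -0.08. Psmc3ip, a cofactor of meiotic recombination named for binding an ATPase subunit, had 5.91, 5.96, 5.38, 5.32 and 5.40 in Fntb KO, against 5.19, 5.42, 5.27, 5.16 and 5.24 in WT. WT 2 was the 1 WT array that reached the Fntb KO range. The difference of 0.33 (SE 0.132) had an adjusted p of 0.412, and it was 0.25 with the block and 0.15 without the 3 low-median arrays. Psme3ip1, which binds Psme3, differed by -0.03.

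Genes that act around the proteasome were read from the same limma fit. Of 20 measured partners, none was called in either direction, 3 were lower at an unadjusted p under 0.05, 16 were negative, and their median was -0.11. Over all genes tested, 1.11% were called, 5.01% were lower at that unadjusted p and 47.5% were negative (53.0% of genes at or above the median level), with a median of 0.01. The largest differences were in Zfand5, a ubiquitin-binding activator of the 26S particle, at -0.28 (adjusted p 0.493), and in Ecpas, a scaffold that tethers and inspects proteasomes, at -0.26 (adjusted p 0.468). Pomp, the maturation factor of the beta ring, averaged 8.52 ± 0.32 in Fntb KO and 8.69 ± 0.18 in WT. Nfe2l1, the transcription factor that raises proteasome genes when the protease is impaired, averaged 7.11 ± 0.11 in Fntb KO and 7.12 ± 0.09 in WT. Of 10 measured genes of class I antigen processing, none was called, 3 were lower at an unadjusted p under 0.05, 9 were negative, and their median was -0.09, beside the same 1.11%, 5.01% and 47.5% of all genes. Calr, a chaperone of class I loading, differed by -0.38 (adjusted p 0.261) and Erap1, which trims peptides in the endoplasmic reticulum, by -0.27 (adjusted p 0.338). Tap1, which lies beside Psmb9 and pumps peptides into the endoplasmic reticulum, averaged 9.20 ± 0.12 in Fntb KO and 9.20 ± 0.07 in WT.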

How the data were processed

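RNA of sorted Treg cells was amplified and biotin-labelled with NuGEN kits and read on 1-colour Affymetrix arrays, per the labels' protocols. The recorded RNA input was 1 to 20 ng, and its part in the shifts between arrays was not tested. The authors' deposited log2 values were made by RMA in Affymetrix Expression Console 1.1, per the submitters' processing notes. Both deposited tables held the same values for 41345 probe sets. Probe sets with 1 symbol in GEO's platform annotation (23521) were used, and the one with the highest mean stood for its gene. Fntb KO minus WT was fitted over all 22180 genes with lmFit and eBayes in limma 3.58.1 (R 4.3.3), without covariates, with Benjamini-Hochberg adjustment over all genes. Every adjusted p of a gene is from that fit unless another is named. The 3 pairs of subunits were tested by exact permutation of the 10 arrays, and their intervals by inverting that test. The fit was tested on simulated data. The number of arrays limits the precision, and no detection calls were used. Array numbers follow accession order within each genotype and are not replicate numbers from the labels. In accession order the low-median arrays are consecutive. Among the other arrays all WT arrays come before all Fntb KO arrays, so an effect of order on the genotype difference there was not tested. Named genes were 2 per part of the particle with the largest difference, the interchangeable subunits, Psme1 to Psme3, the partners with the largest difference, Fntb and Foxp3; others are described because they are members. Members and lists were chosen with earlier results of these data known. Alternatives covered normalization, centring, dim genes, variance model, array weights, probe sets, the other table, the low-median arrays and each array left out.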

Additional observations from a re-analysis of the deposited data

Results flagged for a closer look

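Among 84 groups of 5 arrays examined for a value far from its neighbours, 3 stood out, where chance gives about 1 in 20. Psmb8 in WT 2 was 9.31, above the next WT array at 9.08. The median of the constitutive beta subunits in Fntb KO 5 was 8.46, below the next Fntb KO array at 8.85. The median of Psmc3ip and Psme3ip1 in WT 2 was 6.93, above the next WT array at 6.64.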

How the results depend on the processing

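The count of proteasome genes past the threshold was 0 with all arrays and 1, Psmd10, both in the block fit and without the 3 low-median arrays. It was 0 under the 8 other settings and when each array was left out. Psmd10 was negative in every fit run, from -0.76 to -0.39. The median difference of the 48 genes was negative in all fits, from -0.14 to -0.01, and was smallest without Fntb KO 5. That of the alpha ring was 0.01 without Fntb KO 5, against -0.13 with all arrays, and those of the immunoproteasome subunits, the activators and the 20S chaperones took both signs over the alternatives. Over all genes, 246 were called with all arrays, 368 in the block fit, 150 without the 3 low-median arrays, and 127, 135 and 153 without WT 3, WT 4 and WT 5. Fntb passed in every fit. No partner or class I gene passed in any. The shift of Psmb8 minus Psmb5 ran from 0.06 to 0.25, with an exact permutation p of 0.0571 adjusted over the pairs at its lowest, in the block fit. The shifts of Psmb9 minus Psmb6 and Psmb10 minus Psmb7 took both signs. No paired analysis was possible because the labels give the arrays no replicate numbers. A missing call with 5 arrays a genotype does not show that a gene did not differ.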
